A study of Arabidopsis thaliana with 6 samples.

Results

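The genes described here are the 44 plastid-genome genes for the photosynthetic apparatus: photosystem I (5 genes), photosystem II (15), the cytochrome b6f complex (6), the NDH complex (11), the ATP synthase (6) and rbcL. They were taken by symbol, and all 44 had a probe set among the 22746 plant probe sets of the array. 43 had a probe set of their own, and ndhB, which lies in both copies of the plastid inverted repeat, had one annotated to both copies. Transcript signals came from Affymetrix ATH1 arrays. The tissue was the shoot parts of Arabidopsis thaliana seedlings after 2 days of stratification and 10 days of growth on agar. All plants had 16 h of light a day, and the tissue was taken 2 h into the light. 3 arrays came from wild-type Col-0 and 3 from SPT4-R3, line 3 of an RNA interference construct against SPT4 in the same Columbia background. SPT4 and SPT5 together form an elongation factor of nuclear RNA polymerase II. SPT4-R3 is a single line, and neither the promoter of its construct nor the sowing and pooling of the plants behind each array is given in the sources used here. The labels call the arrays of a genotype biological replicates, so p-values measure the spread between these samples only.

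Plastid genes are transcribed inside the chloroplast, not by RNA polymerase II. Photosynthesis genes are read mainly by a bacterial-type polymerase whose core is encoded in the plastid (rpo genes) and whose sigma factors come from the nucleus, and phage-type polymerases from the nucleus transcribe other plastid genes. Many of the genes lie in operons, so that neighbours share a precursor RNA that is then cut, spliced and trimmed, and members of an operon are not independent measurements. The proteins are assembled with nuclear-encoded partners into the thylakoid complexes of the light reactions, and rbcL encodes the large subunit of Rubisco, the enzyme that fixes CO2. The standard Affymetrix labelling named in the labels starts from poly(A) tails, which most plastid RNAs do not carry as a stable feature. A change in the amount of a plastid RNA and a change in the part of it that is labelled cannot be told apart here, nor can fewer green cells or plastids and less RNA in each.

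On the deposited log2 scale most of these genes read lower in SPT4-R3. In the limma fit over all probe sets, with Benjamini-Hochberg adjustment, 27 of the 44 fell (61.4%). None rose, and 17 missed the threshold of 0.05. Of all tested probe sets 49.9% passed, 23.5% as lower and 26.4% as higher. The differences ran from -0.95 for psbB to 0.16 for psbM with a median of -0.35, against a median of -0.003 over all tested probe sets. The difference was below 0 in 38 of the 44 and in 50.8% of all probe sets. In 22 genes all 3 SPT4-R3 arrays lay below all 3 wild-type arrays, which held for 26.3% of all probe sets, and in 3 (psbM, ndhI and atpE) they lay above, which held for 28.9%. The falls were moderate: 14 genes were called and lower by at least 0.5, as were 9.07% of all probe sets. Without each array in turn the number called lower was 17 to 32. It was 17 without SPT4-R3 replicate 3, 18 without wild-type replicate 3 and 32 without wild-type replicate 1.

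The direction depends on the scaling. The bioB, bioC and bioD hybridisation controls averaged 9.01 ± 0.0302 (SD, n = 3) for wild type against 8.62 ± 0.114 for SPT4-R3 (two-sided exact permutation p = 0.1, the lowest possible for 3 against 3). Centring the arrays on them moved the median of all probe sets to 0.39 and that of the 44 genes to 0.05, and then 8 were lower (psbB, psbD, psbN, petG, petL, ndhH, atpH and atpI) and 14 higher. The cre spike control moved far less than bioB, bioC and bioD. Its difference was -0.05 with overlapping genotypes (two-sided exact permutation p = 0.7), and the arrays were not centred on it. Centring on the poly-A spike controls gave 18 lower (40.9%) and 1 higher (2.27%), against 10.9% lower and 30.4% higher of all probe sets. The medians were then 0.146 for all probe sets and -0.20 for the 44 genes. Directions below refer to the deposited scale, where the middle of all probe sets is near 0.

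**Figure D1:**
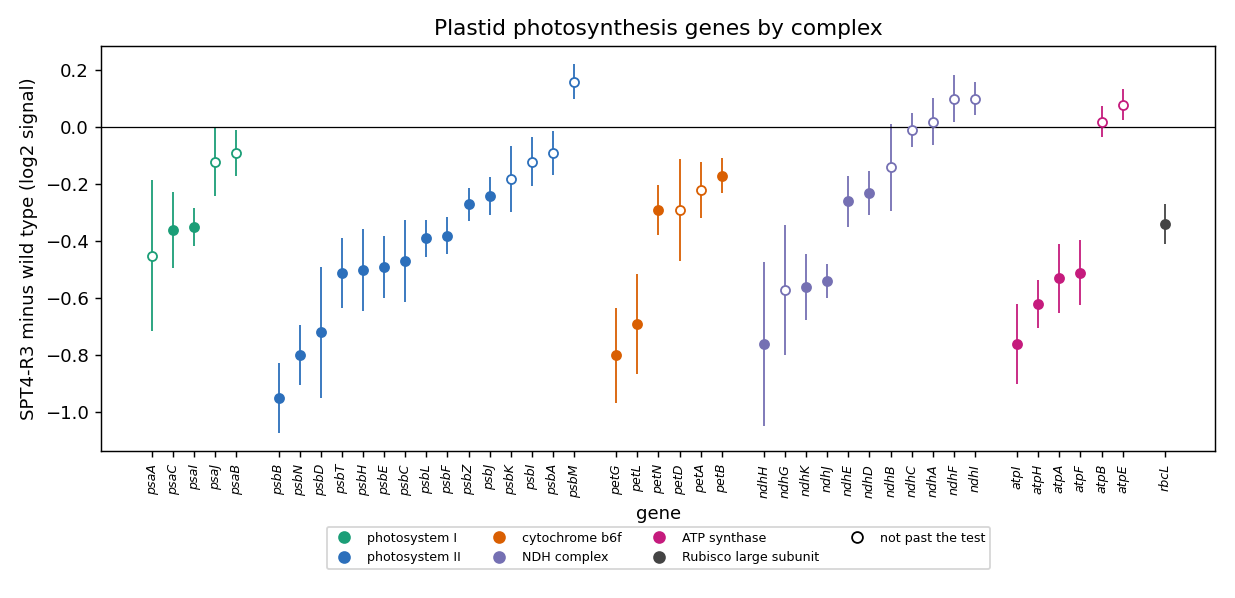
The difference between SPT4-R3 and wild type in log2 signal is plotted for the 44 genes grouped by complex, with bars of 1 SE from the limma fit (n = 3 per genotype); filled points passed the test. On the deposited scale 38 of the 44 points lie below 0, from -0.95 for psbB upwards; centring on bioB, bioC and bioD turned 20 of the differences.

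Arrays of one genotype differed more in these genes than in the median probe set. Their median SD was 0.172 for wild type (n = 3) and 0.108 for SPT4-R3 (n = 3), against 0.0751 and 0.0643 over all tested probe sets. Wild-type replicate 1 was the lowest wild-type array in 41 of the 44 genes, as in 35.2% of all probe sets, and lay a median of 0.26 below the mean of its 2 counterparts. SPT4-R3 replicate 1 was the highest SPT4-R3 array in 25 of the 44, as in 32.7% of all probe sets. Relative to each gene's wild-type mean, the median over the 44 genes was -0.18, 0.04 and 0.13 on wild-type replicates 1, 2 and 3 and -0.24, -0.38 and -0.38 on SPT4-R3 replicates 1, 2 and 3. The lowest wild-type and the highest SPT4-R3 array were thus close together.

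Some measures of the arrays moved with this pattern in part. The poly-A spike controls read 6.95, 6.65 and 6.78 across wild type against 6.68, 6.62 and 6.63 across SPT4-R3, highest on replicate 1 of each genotype, where the plastid genes were lowest among wild type but highest among SPT4-R3. The 25S rRNA control, a transcript that like plastid RNA has no regular poly(A) tail, read 12.32, 12.68 and 12.51 in wild type against 12.78, 12.66 and 12.61 in SPT4-R3. Among the wild-type arrays it was lowest on replicate 1 and among SPT4-R3 highest on replicate 1, but its mean was higher in SPT4-R3 by 0.18 (exact permutation test, two-sided p = 0.3), while most plastid genes were lower. Of 6 differences between 3' and 5' control probe sets (GAPDH, actin and ubiquitin), a sign of RNA quality, wild-type replicate 1 had the highest of the wild type in 4 and SPT4-R3 replicate 1 the lowest of SPT4-R3 in 4. Genotypes did not overlap in 3 of the 6, which went both ways. SPT4-R3 minus wild type was 0.19 for the second GAPDH version, 0.21 for the first ubiquitin version and -0.17 for the second. The part of these measures in the plastid differences was not tested.

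**Figure D2:**
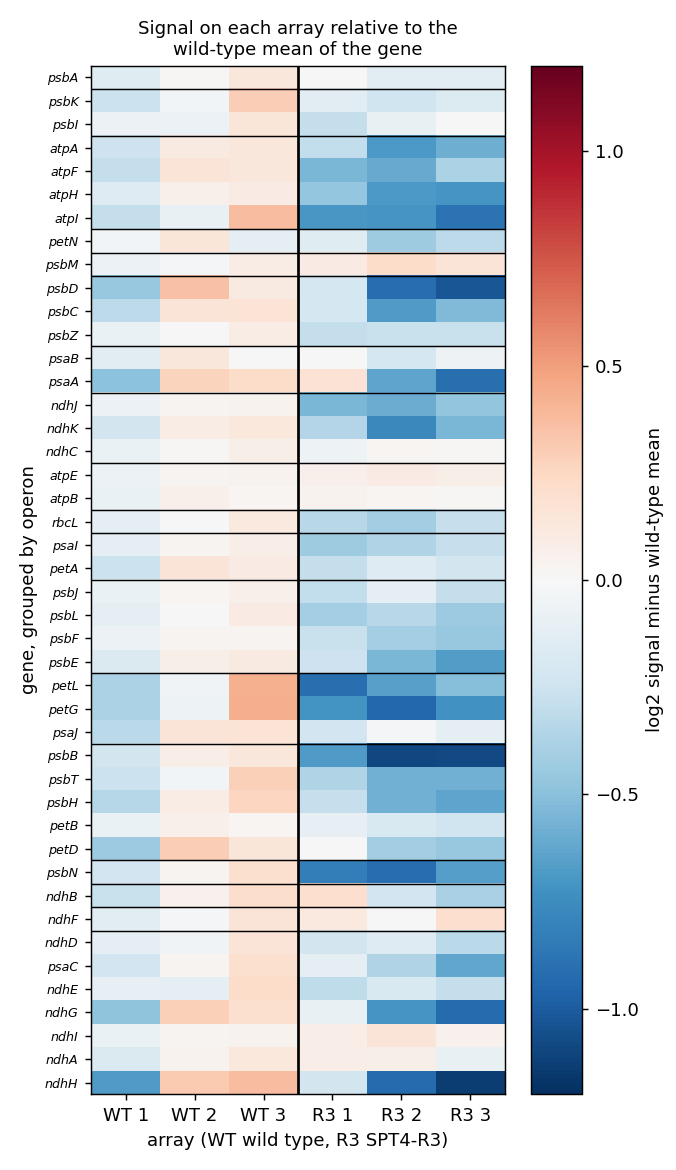
Each row is 1 of the 44 genes, grouped by operon and in the order of the genome, and each column 1 array; colour gives the log2 signal minus the gene's wild-type mean on the deposited scale. The 3 SPT4-R3 columns are mostly blue (lower), and the wild-type replicate 1 column is paler blue in most rows, being the lowest wild-type array in 41 rows; the differences of 20 rows turn when arrays are centred on bioB, bioC and bioD.

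Photosystem II, which splits water at its reaction centre, held the largest fall. Of its 15 genes 11 fell, none rose and 4 did not pass, with a median of -0.39 (0.00 when centred on bioB, bioC and bioD). The core antenna gene psbB (ArthCp049) read 9.29, 9.59 and 9.64 across wild type against 8.83, 8.41 and 8.42 across SPT4-R3. The genotypes did not overlap, and psbB fell by 0.95 ± 0.123 (SE), or 1.94-fold, with an adjusted p of 0.000106 in limma. psbB was also the only one of the 44 genes that passed a limma test against a difference of 0.5. psbN (ArthCp051), needed for reaction centre assembly in tobacco, read 9.10, 9.36 and 9.52 in wild type against 8.50, 8.41 and 8.67 in SPT4-R3. It fell by 0.80 ± 0.105 (SE), 1.74-fold, with no overlap (limma adjusted p = 0.000115).

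Of the reaction centre pair of photosystem II, psbD fell and psbA did not pass; the difference between them was not tested. psbD (ArthCp017), for the D2 protein, read 9.56, 10.37 and 10.12 in wild type against 9.81, 9.10 and 8.99 in SPT4-R3. SPT4-R3 replicate 1 lay above wild-type replicate 1, and psbD fell by 0.72 ± 0.231 (SE; limma adjusted p = 0.0262). psbA (ArthCp002), for the D1 protein that is replaced fastest under light, read 11.14, 11.30 and 11.42 in wild type against 11.29, 11.15 and 11.15 in SPT4-R3. Those values overlap, and the difference of -0.09 ± 0.0772 did not pass (adjusted p = 0.371 in limma). The other core antenna gene, psbC, fell by 0.47 with overlapping genotypes. Its call, like those of psbD and psbH, was lost when replicate 2 or 3 of either genotype was left out.

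Among the small subunit genes of photosystem II, psbE and psbF, for the paired subunits of the reaction centre cytochrome, fell by 0.49 and 0.38, psbL by 0.39, psbJ by 0.24 and psbZ by 0.27, each with no overlap between genotypes. psbT fell by 0.51 and psbH by 0.50. psbK and psbI did not pass, at -0.18 and -0.12. psbM (ArthCp016), a subunit at the dimer interface, read 13.71, 13.77 and 13.87 in wild type against 13.88, 14.00 and 13.94 in SPT4-R3. It was higher on all 3 SPT4-R3 arrays, by 0.16 ± 0.0611 (SE), without passing (limma adjusted p = 0.0568); it passed under quantile normalization, limma with trend and robust settings, centring on either set of spike controls, without the dimmest 30% of probe sets and without wild-type replicate 3.

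Of the 5 photosystem I genes 2 fell, none rose and 3 did not pass, with a median of -0.35 (0.04 when centred on bioB, bioC and bioD). psaI (ArthCp032), a small membrane subunit, read 11.42, 11.57 and 11.61 in wild type against 11.11, 11.17 and 11.26 in SPT4-R3 and fell by 0.35 ± 0.0671 (SE) with no overlap (limma adjusted p = 0.00142). psaC, for the subunit that carries the terminal iron-sulphur clusters, fell by 0.36 (adjusted p = 0.0455 in limma) with overlapping genotypes. This call was lost without any one of wild-type replicates 2 and 3 and SPT4-R3 replicates 2 and 3. psaA (ArthCp022), for one of the reaction centre pair, had the largest difference of the complex. It read 8.03, 8.79 and 8.74 in wild type against 8.69, 7.89 and 7.62 in SPT4-R3. The first array of each genotype stood apart from the other 2 in opposite directions, and the difference of -0.45 ± 0.265 (SE) did not pass (limma adjusted p = 0.188). psaB, its partner, differed by -0.09 and psaJ by -0.12, neither past the test.

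In the cytochrome b6f complex, which passes electrons between the photosystems, 4 of 6 genes fell, none rose and 2 did not pass, with a median of -0.29 (0.10 when centred on bioB, bioC and bioD). The largest falls were in genes for its small subunits. petG (ArthCp041) read 6.57, 6.89 and 7.38 in wild type against 6.23, 6.0 and 6.22 in SPT4-R3 and fell by 0.80 ± 0.166 (SE), 1.74-fold (limma adjusted p = 0.00257). petL (ArthCp040) read 7.82, 8.16 and 8.63 in wild type against 7.30, 7.55 and 7.69 in SPT4-R3 and fell by 0.69 ± 0.175 (SE; adjusted p = 0.00783 in limma). Neither overlapped between genotypes, and in both wild-type replicate 3 was the highest array. petN fell by 0.29 and petB, for cytochrome b6, by 0.17, without overlap, and each lost its call without some single arrays. petB also lost it under quantile normalization, with a difference of -0.02 (limma adjusted p = 0.852), the only call of the 27 so lost. petA, for cytochrome f, and petD, for subunit IV, did not pass, at -0.22 and -0.29.

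The ATP synthase genes that fell all came from a single operon. They read 8.23 to 11.79 in wild type, while atpB and atpE, which did not pass, read 14.15 and 14.19. The highest value on any array was 14.53. Operon and signal range thus cannot be told apart here. 4 of 6 fell, none rose and 2 did not pass, with a median of -0.52 (-0.13 when centred on bioB, bioC and bioD). atpI (ArthCp010) and atpH (ArthCp009) encode membrane subunits of the proton channel. atpI read 7.94, 8.14 and 8.60 in wild type against 7.53, 7.52 and 7.34 in SPT4-R3 and fell by 0.76 ± 0.140 (SE), 1.70-fold (limma adjusted p = 0.00116). atpH read 9.61, 9.82 and 9.86 in wild type against 9.30, 9.07 and 9.06 in SPT4-R3 and fell by 0.62 ± 0.0858 (SE; adjusted p = 0.000172 in limma). atpF, for the peripheral stalk, fell by 0.51 and atpA, for the alpha subunit, by 0.53. None of these 4 overlapped between genotypes, and each kept its call without any single array. The beta and epsilon subunit genes did not pass: atpB differed by 0.02 ± 0.0555 and atpE (ArthCp028), at 14.12, 14.22 and 14.23 in wild type against 14.25, 14.29 and 14.26 in SPT4-R3, by 0.08 ± 0.0539 (SE; limma adjusted p = 0.273).

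The NDH complex carries electrons around photosystem I. Of its 11 genes 5 fell, none rose and 6 did not pass, with a median of -0.23 (0.16 when centred on bioB, bioC and bioD). 4 genes encode the peripheral arm. Of these, ndhH (ArthCp080) had the largest difference and the widest spread, at 7.26, 8.26 and 8.31 in wild type against 7.72, 7.02 and 6.80 in SPT4-R3. It fell by 0.76 ± 0.288 (SE), with overlapping genotypes and an adjusted p of 0.0497 in limma that rose to as much as 0.194 without single arrays. ndhK (ArthCp026) read 9.10, 9.41 and 9.45 in wild type against 8.97, 8.55 and 8.77 in SPT4-R3 and fell by 0.56 ± 0.116 (SE; limma adjusted p = 0.00256). ndhJ fell by 0.54 ± 0.0586 (adjusted p = 2.99e-05 in limma), the smallest p of all 44 genes. ndhI (ArthCp078) did not pass, at 13.90, 14.01 and 14.02 in wild type against 14.06, 14.13 and 14.03 in SPT4-R3, a difference of 0.10.

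Of the 7 genes for the membrane arm of NDH, 2 fell. ndhG (ArthCp077) read 6.96, 7.73 and 7.64 in wild type against 7.35, 6.74 and 6.52 in SPT4-R3. As in ndhH, SPT4-R3 replicate 1 lay above wild-type replicate 1, and the difference of -0.57 ± 0.229 (SE) did not pass (adjusted p = 0.0618 in limma). ndhE and ndhD fell by 0.26 and 0.23, and both calls were lost without SPT4-R3 replicate 1 and without some other single arrays. ndhA and ndhC differed by 0.02 and -0.01. ndhF (ArthCp071) was dim, at 4.29, 4.41 and 4.58 in wild type against 4.54, 4.42 and 4.63 in SPT4-R3, above the trp controls (3.46 to 3.84), and differed by 0.10 ± 0.0825. ndhB, the other dim gene at 5.08 and 4.94, differed by -0.14.

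rbcL (ArthCp030) read 11.63, 11.74 and 11.86 across wild type against 11.41, 11.33 and 11.47 across SPT4-R3. The genotypes did not overlap, and rbcL fell by 0.34 ± 0.0696 (SE), 1.27-fold (limma adjusted p = 0.00227), a call kept without any single array but turned to 0.05 by centring on bioB, bioC and bioD.

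Read by operon, the genes of some transcription units moved together and those of others did not; differences between genes of an operon were not tested. All 4 photosynthesis genes of the rps2-atpI-atpH-atpF-atpA operon fell, by 0.51 to 0.76, and rps2 at its head fell by 0.39. All 4 genes of psbE-psbF-psbL-psbJ fell, by 0.24 to 0.49, and all 3 of psbD-psbC-psbZ, by 0.27 to 0.72. In psbB-psbT-psbH-petB-petD 4 of 5 fell, over a range from -0.95 for psbB at its head to -0.17 for petB. psbN lies inside this operon on the opposite strand and fell by 0.80. Centring on bioB, bioC and bioD left medians over the photosynthesis genes of -0.18 for the first of these operons, 0.01 for psbE-psbF-psbL-psbJ, -0.08 for psbD-psbC-psbZ and -0.10 for psbB-psbT-psbH-petB-petD.

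Other operons were mixed. In ndhC-ndhK-ndhJ, ndhJ read 10.69, 10.79 and 10.80 in wild type against 10.21, 10.16 and 10.29 in SPT4-R3, while ndhC read 12.33, 12.43 and 12.48 against 12.35, 12.44 and 12.43. These genes were singled out after their values were seen. In the 7-gene unit from ndhH to ndhD, which also holds psaC, 4 fell and 3 did not pass, with differences from -0.76 for ndhH to 0.10 for ndhI. petL and petG fell and their neighbours psaJ (-0.12) and rpl33 (0.04) did not pass; rps18 at the end fell by 0.32. rps7 fell by 0.37 and ndhB beside it did not pass. In accD-psaI-ycf4-cemA-petA, accD, psaI and ycf4 fell by 0.49, 0.35 and 0.54, and cemA (-0.36) and petA (-0.22) did not pass. No gene of atpB-atpE, psbK-psbI or psaA-psaB-rps14 passed. Among genes with a unit of their own, rbcL, psbN and petN fell, and psbA, psbM and ndhF did not pass.

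**Figure D3:**
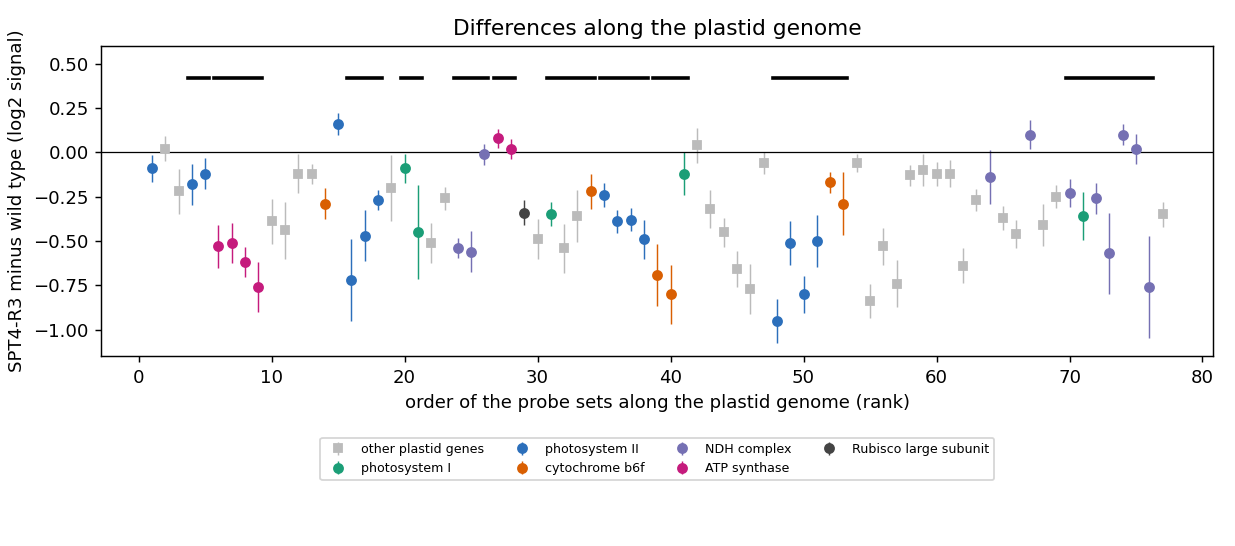
The difference between SPT4-R3 and wild type (log2 signal, deposited scale, bars of 1 SE) is plotted by the rank of the probe sets along the plastid genome, with black bars at the top over operons that hold 2 or more of the 44 genes; grey squares are the other 33 plastid probe sets. Most points of both kinds lie below 0, and under centring on bioB, bioC and bioD 20 of the coloured points would change sign.

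The size of the difference varied with the signal in wild type. Signals of different probe sets are not levels that can be set against each other, and the limits used here were chosen after the values were seen. Of the 14 genes with a wild-type signal from 8 to below 11, 13 fell with a median of -0.55, where 35.9% of all probe sets in that range were called lower. Of the 15 from 11 to below 13, 8 fell with a median of -0.23 (43.7% of all probe sets in the range). Of the 7 at 13 or above, psbF and petB fell and the median was 0.02. Of all 107 probe sets at 13 or above, 62.6% were called lower, with differences down to -1.93. Of the 8 genes below 8, 4 fell with a median of -0.32 (17.8% of all probe sets). After centring on bioB, bioC and bioD the 8 genes still called lower all had wild-type signals below 11.

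**Figure D4:**
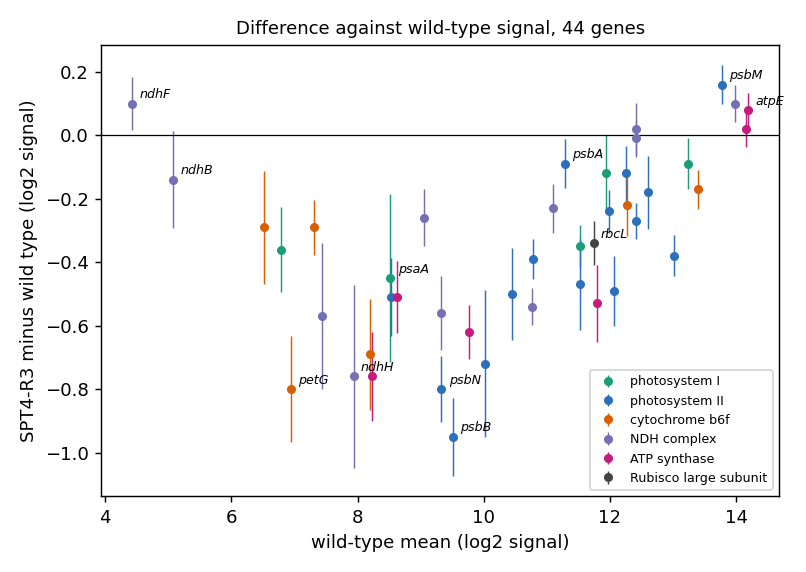
The difference between SPT4-R3 and wild type (log2 signal, bars of 1 SE, n = 3 per genotype) is plotted against the wild-type mean log2 signal for the 44 genes, coloured by complex. On the deposited scale the largest falls lie between wild-type signals of about 7 and 11, and the 7 genes at 13 or above lie between -0.38 and 0.16; 20 of the differences turn under centring on bioB, bioC and bioD.

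The rest of the plastid genome gave similar counts, and the difference between them was not tested. Of 33 other plastid probe sets 20 fell and none rose, with a median of -0.35, the same as that of the 44 genes. Wild-type replicate 1 was the lowest wild-type array in 28 of the 33. Of 19 genes for plastid ribosomal proteins 12 fell, among them rpl36 (by 0.84), rps12 (by 0.66), rpl23 (by 0.64) and rpl16 (by 0.74). Of 9 other plastid proteins 6 fell, among them ycf1 (by 0.46), ycf3, an assembly factor of photosystem I (by 0.51), accD of fatty acid synthesis (by 0.49) and ycf2 (by 0.27). Of the 4 genes of the plastid-encoded polymerase, rpoC2 fell by 0.44 with overlapping genotypes and rpoA, rpoB and rpoC1 did not pass, at -0.06, -0.12 and -0.12. rpoB was dim, at 4.22 in wild type and 4.10 in SPT4-R3. Of 11 genes of the mitochondrial genome 2 fell (nad2 by 1.22 and nad7 by 0.64) and 9 did not pass, with a median of -0.01. Most of the 11 were dim. Apart from nad4, cox1 and nad2 (7.84, 7.18 and 6.83 in wild type) they read 3.80 to 5.50 there. matR, at 3.80, lay within the range of the trp controls (3.46 to 3.84), so small differences in these genes could be missed.

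Nuclear genes for partners of the same complexes were mostly lower too. Of the 11 matched by name, 7 fell, 1 rose and 3 did not pass, with a median of -0.51. Of all probe sets 23.5% were lower and 26.4% higher. Most of the 11 had wild-type signals of 13 or above, where 62.6% of all 107 probe sets were called lower. Wild-type replicate 1 was the lowest wild-type array in 3 of the 11. LHCB4.2, a light-harvesting antenna gene of photosystem II, fell by 1.14, PSBY of photosystem II by 0.84, NdhL of the NDH complex by 0.77 and PSAN of photosystem I by 0.63. PSBY read 13.64, 13.55 and 13.65 in wild type against 12.71, 12.79 and 12.82 in SPT4-R3. ATPC2, for a gamma subunit of the ATP synthase, rose by 0.34. Of 4 genes for plastid RNA processing factors, OTP84, a pentatricopeptide repeat editing factor, rose by 0.83 from 6.32 to 7.16, and OTP80, CRR21 and LPA66 did not pass. OTP80 read 3.79 in wild type and 3.80 in SPT4-R3, within the range of the trp controls (3.46 to 3.84). No sigma factor, phage-type polymerase or protein associated with the plastid polymerase was matched by name, so none is described here. Under centring on bioB, bioC and bioD every difference in these lists rises by about the 0.39 of all probe sets.

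The arrays as a whole and the tissue gave these values. Array medians ran from 6.49 to 6.53. SPT4-1 (AT5G08565), the only SPT4 gene looked up here, fell by 1.0 ± 0.0753 (SE). Of 3 root markers none passed, and their summed signal was 11.73 to 11.85 in wild type and 11.75 to 11.81 in SPT4-R3 (log2 of the sum), nearly all of it from PYK10 (11.77 and 11.76 on average). Of 3 genes of the cell lineage that leads to guard cells, FMA fell by 1.42 and the dim MUTE (4.53 and 4.24) by 0.29. SPCH did not pass, and the sums were 7.74 to 8.06 and 7.06 to 7.20. Of 3 green mesophyll markers, all LHCB4 genes, 2 fell, with sums of 14.87 to 14.91 and 14.07 to 14.13. Both embryo and seed markers rose, M17 from 3.68 to 9.0 and M10 from 4.0 to 4.35, with sums of 4.83 to 4.86 and 8.84 to 9.23. The M17 signal of 3.68 in wild type lay within the range of the trp controls (3.46 to 3.84), and that of M10 just above it. The part of a change in cell types in the plastid differences was not tested.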

How the data were processed

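The deposited table holds 1 log2 signal per probe set for each of 6 arrays, and its log2 scale was read from the range of the values (2.94 to 14.53). Affymetrix Expression Console made the values, per the submitters' processing notes; its algorithm and normalization: not given in the sources used here. Arrays carry no counts, and their number limits the precision. 64 control probe sets were left out, and 22746 were fitted by genotype (lmFit, then eBayes, of limma 3.58.1, under R 4.3.3), two-sided, without filter or further normalization, with Benjamini-Hochberg adjustment over all of them and a threshold of 0.05. The fit was tested on simulated data. Probe sets were named through the platform annotation and symbols through a RefSeq gene table (TAIR10.1), of which only names and gene order were used; mitochondrial genes kept the platform's symbol. Each of the 44 genes had 1 probe set. A gene with several in the other lists was represented by the brightest. Of the 22746 probe sets 9223 had several or no gene name. The lists of nuclear genes and markers hold only genes matched by name, so they are parts of their families.

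The genes, operons and lists were chosen with earlier results of these data known. All 44 may be named. Values on every array are given for the 10 largest differences and for the largest rise and fall of each complex. They are also given for psaI, psbA, ndhC, ndhI and ndhJ, chosen after their values were seen. No p is given for a list. Array controls were compared by exact permutation tests. Alternatives were scaling (quantile, median, and 2 sets of spike controls), a filter on dim signals, trended and robust limma, a replicate block, removal of probe sets marked as shared, a test against 0.5 and each array left out. The labels name no pairs and same-numbered arrays did not deviate together (correlations -0.24, -0.126 and -0.065), so the main fit has no block. Such correlations cannot show whether arrays were grown or processed together.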

Additional observations from a re-analysis of the deposited data

How the results depend on the processing

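On the deposited scale 27 of the 44 genes were lower and none higher. With the replicate number as a block 24 were lower and 0 higher. Same-numbered arrays did not deviate together, but whether they were grown or processed as pairs is not stated in the labels. Limma with trend and robust settings gave 24 lower and 1 higher, quantile normalization 27 and 3 (petB at -0.02 no longer called), removal of the dimmest 30% 27 and 1, and the test against 0.5 log2 1 lower and 0 higher (1222 and 1200 of all probe sets). Leaving out each array in turn gave 17 to 32 lower and 0 to 1 higher, and a photosystem I median of -0.41 to -0.23. 17 genes were called lower in every one of these 6 fits, and 10 lost the call in at least 1 of them: psaC, psbC, psbD, psbH, psbJ, petB, petN, ndhD, ndhE and ndhH.

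Centring on the poly-A controls gave 18 lower and 1 higher, with medians of -0.20 for all 44 genes and for photosystem I. Of all probe sets 2478 were then lower and 6926 higher. Centring on the bioB, bioC and bioD controls left 8 lower and 14 higher, with 17406 higher and 1589 lower probe sets in all, and medians of 0.05 for the 44 genes, 0.04 for photosystem I, 0.00 for photosystem II, 0.10 for cytochrome b6f, 0.16 for NDH and -0.13 for the ATP synthase. Under it 20 genes turned: psaB to 0.31, psaC to 0.03, psaI to 0.04, psaJ to 0.27, psbA to 0.30, psbF to 0.02, psbI to 0.27, psbJ to 0.16, psbK to 0.22, psbL to 0.00, psbZ to 0.12, petA to 0.17, petB to 0.22, petD to 0.10, petN to 0.10, ndhB to 0.26, ndhC to 0.39, ndhD to 0.16, ndhE to 0.14 and rbcL to 0.05. So did the medians of psbK-psbI (0.24), psaA-psaB-rps14 (0.12), accD-psaI-ycf4-cemA-petA (0.11), psbE-psbF-psbL-psbJ (0.01) and the operon from ndhH to ndhD (0.14). This centring adds the same 0.39 to the mean difference of every probe set, a shift that the cre control, at -0.05, did not show. Averaging probe sets per gene changes nothing for the 44 genes, which have 1 each. Without a count behind each signal, small differences in dim genes such as ndhB and ndhF could be missed.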
